A study of Mus musculus with 8 samples.

Results

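The 42 genes described here encode the machinery that releases synaptic vesicles: vesicle proteins, SNARE proteins and their regulators, calcium sensors, priming factors and the scaffold of the active zone. They were taken by name for these functions, with earlier results of these data known, and the rule itself used no measured value. All 42 were found among the 55487 Ensembl gene identifiers of each library, and all 42 were among the 17339 genes that passed the expression filter. The values come from RNA sequencing of 8 libraries of mouse dorsomedial hypothalamus (DMH). In 4 libraries (group shPpp1r17, genotype given as Ppp1r17 knockdown) a short hairpin RNA was directed against Ppp1r17, an inhibitor of protein phosphatases. In the other 4 (group shfLuc, genotype given as fLuc knockdown) the hairpin was directed against firefly luciferase, so every library carries a hairpin and none is untreated. The labels do not state strain, age, sex, the way the hairpin was delivered or the cells it reached. The prefix LMD in the library titles stands for laser microdissection of the tissue.

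At a resting nerve terminal, vesicles filled with transmitter dock at the active zone, where large scaffold proteins hold them close to calcium channels. Priming factors help the vesicle SNARE protein synaptobrevin and the membrane SNARE proteins syntaxin and SNAP-25 to zip into a tight complex. When an action potential lets calcium in, synaptotagmin binds it and the vesicle fuses. The ATPase NSF and its SNAP adaptors then take the spent complex apart. Hypothalamic neurons use the same set for fast transmitters, together with related proteins for large vesicles that carry peptides.

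The targeted gene stood at 87.7, 2.07, 3.10 and 87.2 CPM (read counts scaled to TMM-adjusted library totals) in shPpp1r17 libraries 1 to 4, against 147, 161, 161 and 171 CPM in shfLuc libraries 1 to 4. Every shPpp1r17 library was below every shfLuc library, but libraries 1 and 4 kept 54.8% and 54.5% of the shfLuc mean while libraries 2 and 3 kept 1.29% and 1.94%. Library totals ran from 23070147 to 33907984 estimated reads. Whether the libraries are from different animals is not stated, so a p-value reflects library-to-library spread alone, and that spread may be technical. Markers of neurons were detected throughout: the 15 of them summed to 4609 to 5086 TPM (values scaled for gene length and library total) in shPpp1r17 and 5014 to 5357 TPM in shfLuc, with no marker at 0 in any library. Slc17a7, the vesicular glutamate transporter typical of cortex, had at most 1 read in a library.

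Of the 42 genes, 4 fell and 1 rose in shPpp1r17. The 4 that fell were Pclo, Syt1, Rph3a and Syt10, and the 1 that rose was Bsn, by edgeR's quasi-likelihood test at a Benjamini-Hochberg adjusted p of 0.05 over all tested genes. Together they are 11.9% of the members, beside 6.06% of all tested genes called in either direction (2.66% lower and 3.39% higher; 462 and 588 genes, against 488 lower and 309 higher by limma on log2(TPM + 1)). The other 37 did not pass. The median log2 fold change of the 42 was -0.06, beside 0.00413 for all tested genes, and 25 of 42 (59.5%) were below 0, beside 49.5% of all tested genes. On log2(TPM + 1) the median was -0.0991 for the 42 and -0.0623 for all tested genes. TPM thus ran slightly lower in shPpp1r17 for genes in general, which bears on every TPM comparison of the groups given here. The groups did not overlap for 8 members on the lower side and 2 on the higher side, where 6.74% and 7.12% of all tested genes did so. Because the members were chosen with earlier results of these data known, these counts describe the genes and carry no test of the list.

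The number of calls depended on which libraries entered. Without shfLuc 2 or without shfLuc 3, edgeR called 0 members and 0 genes in all, with 8 and 7 members lower and 2 and 2 higher at an unadjusted p under 0.05. Calls were also lost without shfLuc 4 (2 lower, 0 higher), without shPpp1r17 2 (1 lower, 0 higher) and without shPpp1r17 3 (1 lower, 0 higher). The shares of all tested genes called in these fits were 1.62%, 1.75% and 1.11%, in that order. The totals did not fall without shfLuc 1 (4 lower, 1 higher), without shPpp1r17 1 (4 lower, 2 higher) or without shPpp1r17 4 (6 lower, 1 higher). Without shfLuc 1, however, Syt10 no longer passed and Napb did. Over all tested genes 5.82%, 8.07% and 8.73% were called in these fits, in that order, beside 6.06% with all libraries. The fold changes moved less than the calls: without shfLuc 2 and without shfLuc 3 that of Pclo was -0.37 and -0.42 on the log2 scale, that of Syt1 -0.35 and -0.36, and that of Bsn 0.45 and 0.62. Without both shPpp1r17 2 and 3, the libraries with the deepest loss of Ppp1r17, 0 members passed, beside 0.205% of all tested genes. Without shPpp1r17 1 and 4 there were 7 lower and 4 higher, beside 14.8% of all tested genes called. The member calls thus rose and fell along with those over all genes. Pclo was the single member that passed without shPpp1r17 2 and the single one without shPpp1r17 3.

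**Figure D1:**
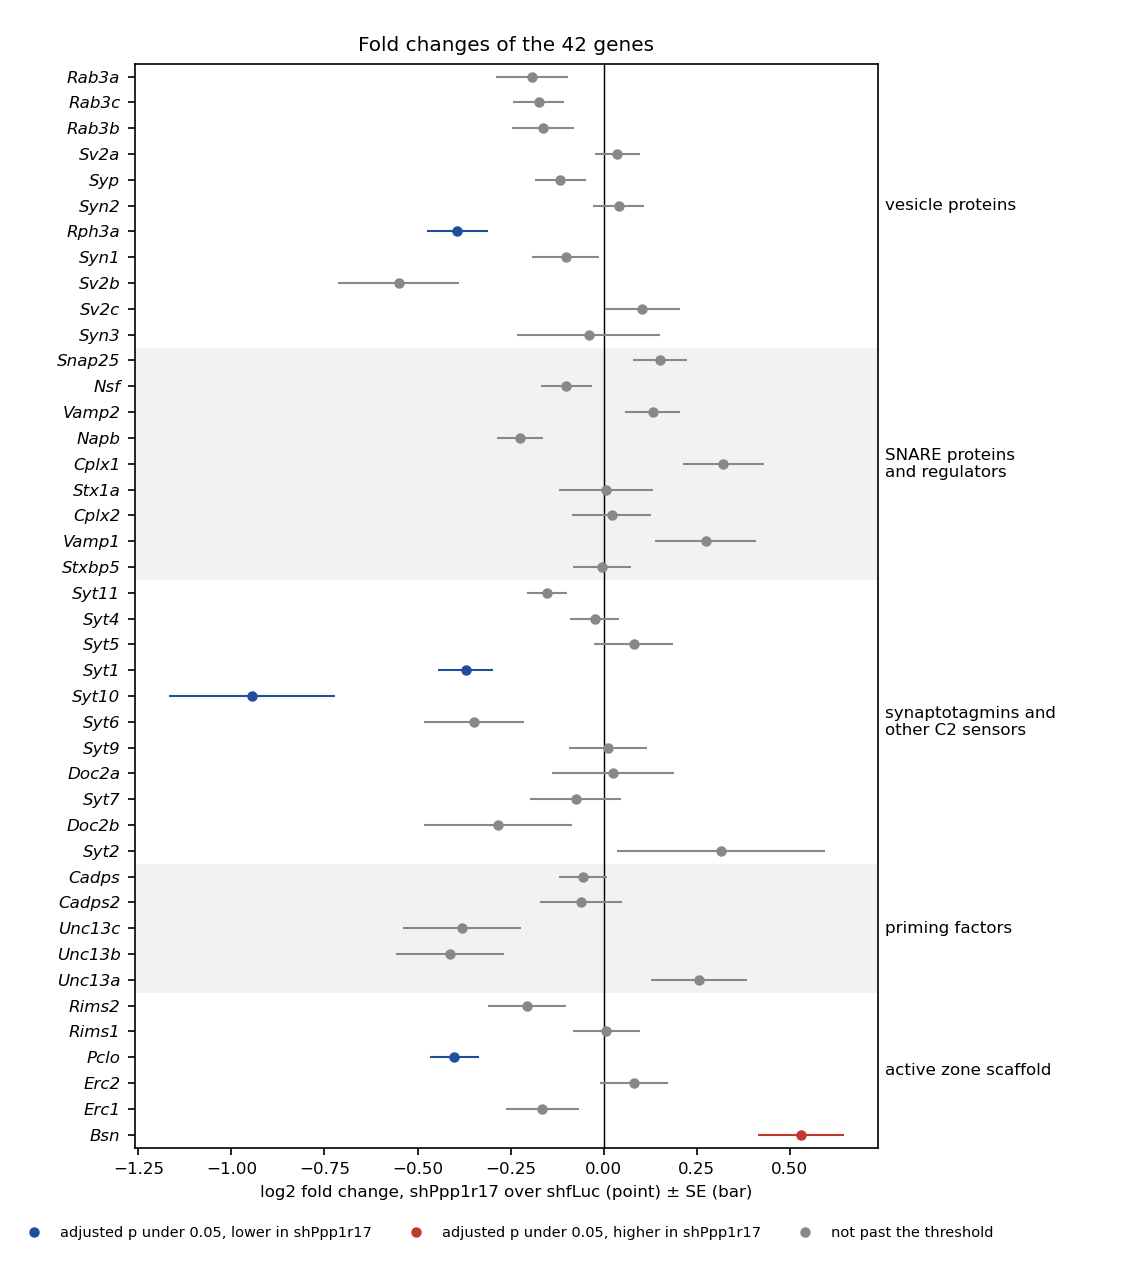
Fold change of each of the 42 genes, as log2 of shPpp1r17 over shfLuc, with its standard error as a bar, grouped by role. Pclo, Rph3a, Syt1 and Syt10 lie to the left of 0 and Bsn to the right of it past the threshold, and the other 37 genes, in grey, did not pass.

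Some members carry in their 3′ UTR a short sequence that is shown here because genes holding it tended to be lower in shPpp1r17 across the whole table. Among 7-base sequences in 3′ UTRs, CTCTGAT ranked first by a statistic that sets the mean fold change of genes with the sequence against that of genes without it. The mean log2 fold change was -0.113 in its 1968 holders and 0.047 in the other genes. The 8-base CTCTGATA extends it by 1 base. It was taken because, of the 1-base extensions on either side, its holders had the lowest mean fold change relative to other genes. Genes with a match of 7 bases (CTCTGAT or TCTGATA) or of all 8, on the transcript strand, were 19.9% of the 14261 genes searched and 11 of the 42 members (26.2%). The 8-base match lay in 2.95% of the searched genes and in 3 members, Pclo, Sv2b and Syt6. Their sites are given below 5′ to 3′ with the match in capitals, next to the same match in the Ppp1r17 mRNA, from the GENCODE M21 annotation of GRCm38.
Ppp1r17: tatttagaCTCTGATAcgttttct
Pclo: agaggatcCTCTGATAtcaaaagg
Sv2b: tgaggataCTCTGATAtagaaaaa
Syt6: catgaggcCTCTGATAtgtttgtg
The Ppp1r17 site is at chromosome 6, 56032367 to 56032374 on the plus strand, in the last exon (5 of 5). The Pclo site is at chromosome 5, 14861255 to 14861262 on the plus strand, in exon 25 of 25. The Sv2b site is at chromosome 7, 75117058 to 75117065 on the minus strand, in exon 13 of 13. The Syt6 site is at chromosome 3, 103633090 to 103633097 on the plus strand, in exon 8 of 8. Neither the build behind the deposited files nor the hairpin sequences are given in the sources used here. The motif was found from the fold changes of these same libraries, so a member's match is no independent evidence on why its level differed.

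Pclo and Bsn make up the largest scaffold proteins of the active zone, Piccolo and Bassoon, which are related in sequence and hold vesicles near the release sites. The pair moved in opposite directions. Pclo (ENSMUSG00000061601; chromosome 5, 14514918 to 14863459, plus strand, GRCm38) stood at 132, 125, 125 and 123 CPM in shPpp1r17 1 to 4, against 164, 177, 161 and 164 CPM in shfLuc 1 to 4. The 4 shPpp1r17 libraries lay close together and all below shfLuc, also those with a partial loss of Ppp1r17. Pclo fell by 24.3%, a log2 fold change of -0.40 (SE 0.07; edgeR's adjusted p = 0.0107, 6.78e-07 to 0.0880 over the alternatives). With the length and GC offset the fold change was smaller, at -0.27 (edgeR's adjusted p = 0.0479). Besides the 8-base match, the Pclo 3′ UTR held 3 matches of 7 bases.

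Bsn (ENSMUSG00000032589; chromosome 9, 108096022 to 108190384, minus strand, GRCm38) stood at 41.1, 53.5, 50.9 and 43.6 CPM in shPpp1r17 1 to 4, against 32.4, 27.4, 38.7 and 32.2 CPM in shfLuc 1 to 4. All shPpp1r17 libraries were above all shfLuc libraries, the highest being 2 and 3. Bsn rose, with a log2 fold change of 0.53 (SE 0.11; edgeR's adjusted p = 0.0203, 0.000979 to 0.254 over the alternatives). On log2(TPM + 1) it was 0.41 with an adjusted p of 0.0995 in limma. Its 3′ UTR held a 7-base match, shown here because Bsn is the 1 member with a match that rose.
Bsn: ctgacattTCTGATAtctgctac
This site is at chromosome 9, 108097023 to 108097029 on the minus strand, in exon 12 of 12. In TPM, which corrects for gene length, Pclo stood at 1.41 ± 0.273 times Bsn in shPpp1r17 and 2.79 ± 0.541 times Bsn in shfLuc (SD, n = 4 each), and the ratio ran from 1.13 to 1.69 in shPpp1r17 against 2.26 to 3.54 in shfLuc.

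None of the other 4 scaffold genes passed. The RIM proteins bind vesicular Rab3 and calcium channels: Rims1 was at a log2 fold change of 0.00693 (SE 0.09) and Rims2 at -0.21 (SE 0.10). The ELKS proteins that bind RIM and Bassoon were at -0.16 (SE 0.10) for Erc1 and 0.08 (SE 0.09) for Erc2. Per length, Rims2 was the most abundant scaffold transcript, at 27.6 ± 4.66 TPM in shPpp1r17 and 35.1 ± 3.56 TPM in shfLuc (SD, n = 4 each).

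Synaptotagmins hold paired C2 domains that, in some members of the family, bind calcium and membrane. Syt1, the main sensor for fast synchronous release in forebrain neurons, fell. It stood at 468, 396, 387 and 453 CPM in shPpp1r17 1 to 4, against 541, 575, 563 and 525 CPM in shfLuc 1 to 4 (ENSMUSG00000035864; chromosome 10, 108497650 to 109010982, minus strand, GRCm38). No library of one group reached the other group, and libraries 2 and 3 were the lowest. Syt1 fell by 22.7%, a log2 fold change of -0.37 (SE 0.07; edgeR's adjusted p = 0.0161, 0.000251 to 0.153 over the alternatives). Its 3′ UTRs held no match to the motif.

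Syt10 had the largest fold change of the 42 genes. Syt10 is a calcium sensor that in mouse olfactory bulb neurons acts in the release of IGF-1, and its gene is active in the neighbouring suprachiasmatic nucleus of mice. It stood at 25.2, 14.8, 11.3 and 11.6 CPM in shPpp1r17 1 to 4, against 37.4, 31.1, 26.9 and 25.8 CPM in shfLuc 1 to 4 (ENSMUSG00000063260; chromosome 15, 89782393 to 89841860, minus strand, GRCm38). The groups nearly met, with shPpp1r17 1 just under shfLuc 4, and shPpp1r17 4, a library with a partial loss of Ppp1r17, was as low as library 3. Syt10 fell by 48.1%, a log2 fold change of -0.95 (SE 0.22; edgeR's adjusted p = 0.0288, 0.000566 to 0.269 over the alternatives). With robust dispersion the adjusted p was 0.0513, and without shfLuc 1 it was 0.0594. Its 3′ UTR held no match to the motif.

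The remaining synaptotagmins and the Doc2 sensors did not pass. Syt11, a family member that does not bind calcium, stood at 1058, 1016, 1037 and 1102 CPM in shPpp1r17 1 to 4, against 1166, 1201, 1158 and 1156 CPM in shfLuc 1 to 4. Its groups did not overlap, yet its log2 fold change was -0.15 (SE 0.05; edgeR's adjusted p = 0.119, 0.0386 to 0.456 over the alternatives). Syt6, which carries the 8-base match, stood at 35.3, 24.7, 28.6 and 40.8 CPM in shPpp1r17 1 to 4, against 36.6, 43.3, 42.6 and 42.5 CPM in shfLuc 1 to 4. Syt6 was low in shPpp1r17 2 and 3, and library 4 lay among the shfLuc libraries, with a log2 fold change of -0.35 (SE 0.13; edgeR's adjusted p = 0.143) (0.00336 to 0.697).

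Per length, the synaptotagmin and Doc2 transcripts spanned a wide range. Syt11 was the highest at 316 ± 12.7 TPM in shPpp1r17 and 379 ± 15.9 TPM in shfLuc (SD, n = 4 each), followed by Syt5 and Syt4, of which Syt4 is found on large peptide vesicles. Syt4 stood at 251 ± 13.6 TPM in shPpp1r17 and 272 ± 16.3 TPM in shfLuc, and Syt5 at 258 ± 42.2 TPM in shPpp1r17 and 263 ± 12.6 TPM in shfLuc (SD, n = 4 each), so Syt4 and Syt5 did not differ beyond their spread. Syt1 came next, at a mean of 122 TPM in shPpp1r17 and 168 TPM in shfLuc. Syt2, the fast sensor of the hindbrain, was the lowest at 0.754 ± 0.253 TPM in shPpp1r17 and 0.836 ± 0.272 TPM in shfLuc, from as few as 66 and 65 reads in a library. Syt7, Syt9, Doc2a and Doc2b ran from 2.96 to 8.03 TPM in shPpp1r17 and from 3.84 to 8.51 TPM in shfLuc as group means.

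**Figure D2:**
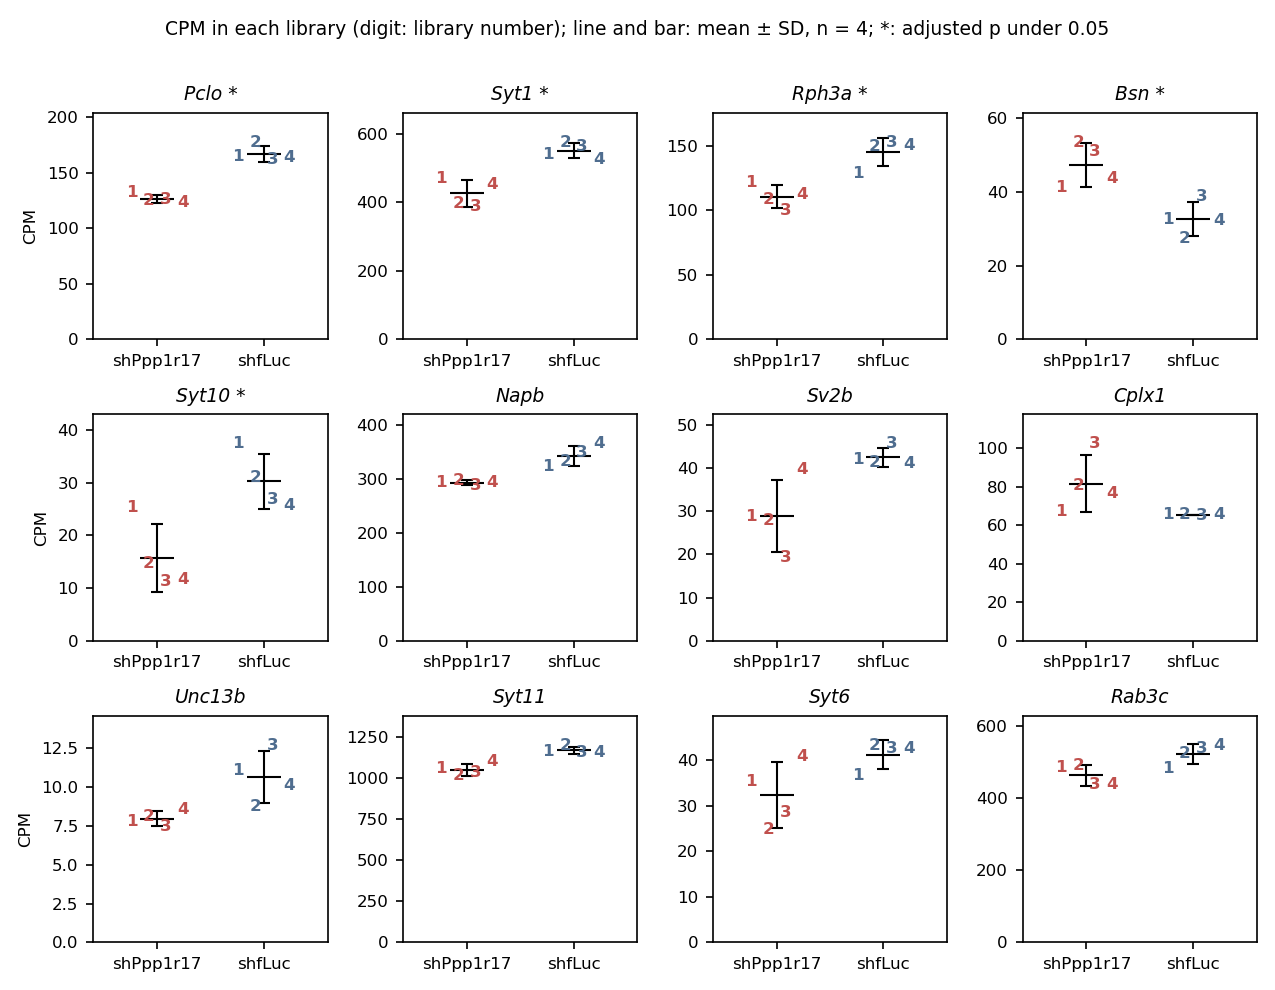
CPM of the 12 members with the smallest p, one panel each, with shPpp1r17 on the left and shfLuc on the right; digits are library numbers and the line and bar are the mean and SD of 4 libraries. The groups do not overlap in the panels from Pclo to Syt11 and overlap for Syt6 and Rab3c, and shPpp1r17 2 and 3 are the highest for Bsn and the lowest for Syt1.

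Among the vesicle proteins, 1 of 11 passed. Rph3a, rabphilin, binds Rab3 on the vesicle and SNAP-25 on the membrane, and it fell. It stood at 122, 108, 100.1 and 113 CPM in shPpp1r17 1 to 4, against 129, 149, 153 and 150 CPM in shfLuc 1 to 4 (ENSMUSG00000029608; chromosome 5, 120940499 to 121010092, minus strand, GRCm38). The groups did not overlap, although shfLuc 1 stood below the other 3 shfLuc libraries and near shPpp1r17 1. Rph3a fell by 23.8%, a log2 fold change of -0.39 (SE 0.08; edgeR's adjusted p = 0.0183, 0.000447 to 0.180 over the alternatives), and its 3′ UTRs held no match.

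Sv2b, a vesicle glycoprotein of the transporter superfamily, carries the 8-base match and did not pass. It stood at 28.8, 27.8, 19.2 and 39.7 CPM in shPpp1r17 1 to 4, against 42, 41.2, 45.6 and 41.1 CPM in shfLuc 1 to 4. All shPpp1r17 libraries were below all shfLuc libraries, library 3 by the most and library 4 by little. Its log2 fold change was -0.55 (SE 0.16; edgeR's adjusted p = 0.0631), and it passed in 5 of the 23 alternatives, DESeq2 among them (0.0127). Its paralogs were at 0.04 (SE 0.06) for Sv2a and 0.10 (SE 0.10) for Sv2c.

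The Rab3 GTPases, which mark vesicles ready to dock, had fold changes below 0 and did not pass. Rab3c stood at 485, 492, 439 and 439 CPM in shPpp1r17 1 to 4, against 482, 525, 539 and 547 CPM in shfLuc 1 to 4, with a log2 fold change of -0.17 (SE 0.07; edgeR's adjusted p = 0.150). Its groups overlapped through shfLuc 1, the lowest control library. Rab3a was at -0.19 (SE 0.10) and Rab3b at -0.16 (SE 0.08). Per length Rab3a was the most abundant of the vesicle proteins, at 486 ± 73.0 TPM in shPpp1r17 and 592 ± 27.0 TPM in shfLuc (SD, n = 4 each). Rab3b stood at 150.3 ± 4.42 TPM in shPpp1r17 and 149 ± 8.96 TPM in shfLuc (SD, n = 4 each), and its deposited mean transcript length, by which TPM divides, averaged 2004 bases in shPpp1r17 and 2370 bases in shfLuc, with overlapping groups.

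The synapsins, which tether vesicles into a reserve pool, and synaptophysin, the classical vesicle marker, did not pass. Syn1 was at a log2 fold change of -0.10 (SE 0.09), Syn2 at 0.04 (SE 0.07), Syn3 at -0.04 (SE 0.19) and Syp at -0.12 (SE 0.07). Syn2 was the main synapsin transcript per length, at 110.3 ± 7.64 TPM in shPpp1r17 and 117 ± 7.95 TPM in shfLuc, against 22.1 ± 2.24 TPM in shPpp1r17 and 25.0 ± 2.07 TPM in shfLuc for Syn1 (SD, n = 4 each). Syn3 was the least abundant member of this group, at 3.48 ± 0.523 TPM in shPpp1r17 and 3.80 ± 0.880 TPM in shfLuc.

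**Figure D3:**
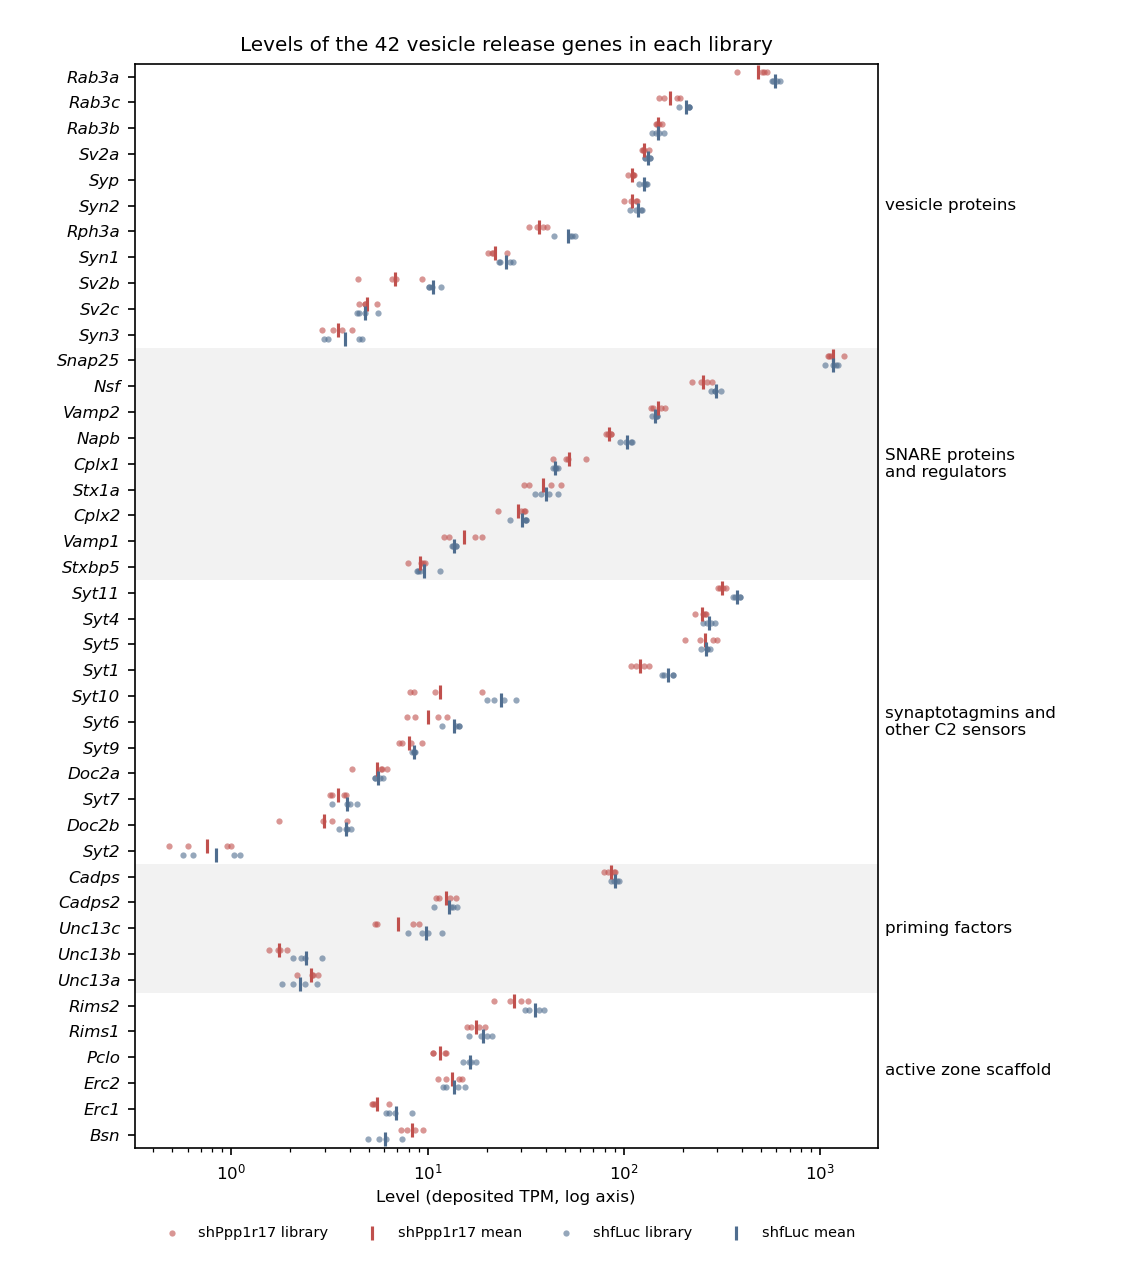
Deposited TPM of each of the 42 genes on a log axis, grouped by role and ordered by the shfLuc mean, with a point for each library and a tick for the mean of each group. Snap25 is the highest, at means of 1171 and 1172, and Syt2 the lowest, at 0.754 and 0.836, in shPpp1r17 and shfLuc.

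In the fusion machinery itself 0 of 9 passed in edgeR, with 1 higher and 1 lower at an unadjusted p under 0.05, and DESeq2 called Cplx1 higher and Napb lower. Snap25, the membrane SNARE with a pair of helices in the complex, was the most abundant of all 42 transcripts per length, at 1171 ± 102 TPM in shPpp1r17 and 1172 ± 79.9 TPM in shfLuc (SD, n = 4 each). Its log2 fold change in CPM was 0.15 (SE 0.07; edgeR's adjusted p = 0.233). Syntaxin 1A (Stx1a) was at 0.00630 (SE 0.13). Of the synaptobrevins, Vamp2, the main form of the forebrain, was at 0.13 (SE 0.07) and Vamp1 at 0.27 (SE 0.13).

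Napb, the brain form of the SNAP adaptor for NSF, came closest to the threshold among the genes that did not pass. It stood at 294, 297, 287 and 294 CPM in shPpp1r17 1 to 4, against 324, 333, 349 and 365 CPM in shfLuc 1 to 4. The 4 shPpp1r17 libraries were nearly equal and all below shfLuc, with a log2 fold change of -0.22 (SE 0.06; edgeR's adjusted p = 0.0525). It passed in 9 of 23 alternatives, among them limma voom (0.0440) and DESeq2 (0.00794), and its 3′ UTR held a 7-base match. Nsf, its partner ATPase, was at -0.10 (SE 0.07).

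Complexin 1 (Cplx1), which clamps and then assists SNARE assembly, had higher values and did not pass. It stood at 67.5, 80.5, 102 and 76.7 CPM in shPpp1r17 1 to 4, against 65.5, 65.5, 65.1 and 65.6 CPM in shfLuc 1 to 4. All shPpp1r17 libraries were above a very narrow shfLuc group, and library 3 was the highest. Its log2 fold change was 0.32 (SE 0.11; edgeR's adjusted p = 0.0972), against 0.02 (SE 0.10) for its paralog Cplx2. Without shPpp1r17 3 the Cplx1 value was 0.19, and without shPpp1r17 2 and 3 it was 0.14. Tomosyn (Stxbp5), which competes for syntaxin, was at -0.00382 (SE 0.08).

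Of the 5 priming factors 0 passed in edgeR, with 2 lower at an unadjusted p under 0.05, and DESeq2 called 0. The Munc13 proteins open syntaxin for SNARE assembly. Unc13b stood at 7.78, 8.08, 7.49 and 8.58 CPM in shPpp1r17 1 to 4, against 11.1, 8.78, 12.7 and 10.1 CPM in shfLuc 1 to 4, from 199 reads or more in each library. The groups did not overlap, with shPpp1r17 4 just under shfLuc 2, and its log2 fold change was -0.41 (SE 0.14; edgeR's adjusted p = 0.112). Unc13c was at -0.38 (SE 0.16) and Unc13a, the main form of forebrain synapses, at 0.26 (SE 0.13). Unc13a was a minor transcript here, at 2.53 ± 0.261 TPM in shPpp1r17 and 2.24 ± 0.387 TPM in shfLuc, whereas Cadps, which primes peptide vesicles, stood at 85.6 ± 5.39 TPM in shPpp1r17 and 90.7 ± 3.44 TPM in shfLuc (SD, n = 4 each). Cadps was at a log2 fold change of -0.06 (SE 0.06) and Cadps2 at -0.06 (SE 0.11).

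**Figure D4:**
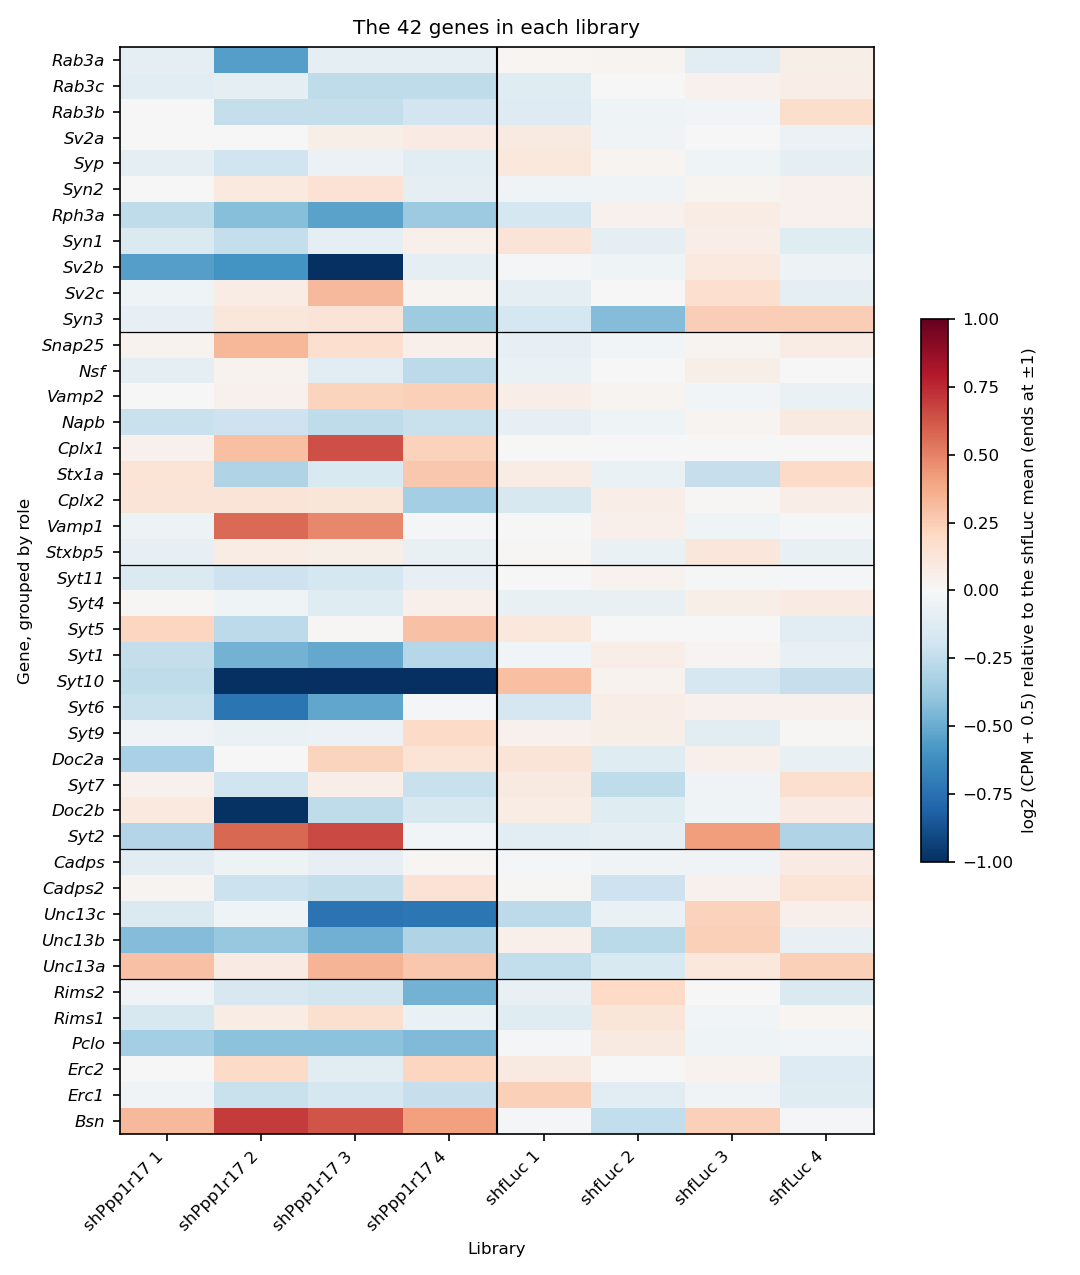
log2 of CPM + 0.5 relative to the shfLuc mean for each gene (rows, grouped by role) in each library (columns), with colours ending at ±1. Pclo and Bsn keep one colour in all 4 shPpp1r17 columns, while Vamp1 and Syt6 differ from the shfLuc mean mainly in shPpp1r17 2 and 3.

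As a sum, the 42 genes took 0.869% ± 0.00665 of reads in shPpp1r17 and 0.912% ± 0.0145 in shfLuc (SD, n = 4 each). The sum was 8737, 8785, 8653 and 8671 CPM in shPpp1r17 1 to 4, against 8908, 9090, 9206 and 9271 CPM in shfLuc 1 to 4, so the groups did not overlap. The median of the members relative to the shfLuc mean was -0.06, -0.08, -0.09 and -0.08 on the log2 scale in shPpp1r17 1 to 4, with no split between the libraries of deep and of partial loss of Ppp1r17. In bulk tissue, fewer neurons and less RNA of these genes per neuron cannot be told apart.

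Markers of some other cell types were higher in shPpp1r17 across their lists. All 10 microglia markers (median log2 fold change 0.66), all 10 oligodendrocyte markers (0.61) and all 8 endothelial markers (0.23) were above 0. Over all tested genes 8765 of 17339 were. At an unadjusted p under 0.05 in edgeR, 8, 7 and 1 of these markers were higher, in that order. The calls below are to be read against 3.39% higher over all tested genes. Among the summed lists only that of blood markers did not overlap. Of 10 microglia markers 5 rose and 0 fell, among them C1qa (log2 fold change 0.97, SE 0.17), and the list summed to 612 to 1052 TPM in shPpp1r17 and 412 to 619 TPM in shfLuc. Of 10 oligodendrocyte markers 3 rose, with 734 to 1271 TPM in shPpp1r17, where libraries 2 and 3 were the highest at 1226 and 1271, and 734 to 801 TPM in shfLuc. All 5 blood markers rose, with 2110 to 3873 TPM in shPpp1r17 and 1115 to 1813 TPM in shfLuc, and 1 of 8 endothelial markers rose, Ly6c1 (0.84, SE 0.17), with 118 to 205 TPM in shPpp1r17 and 99.7 to 130 TPM in shfLuc. Of 10 astrocyte markers 2 rose, Gfap (1.82, SE 0.33) and S100b (0.29, SE 0.07), and 1 fell, Slc1a3 (-0.46, SE 0.11). Gfap stood at 119.5, 340.8, 246 and 110.4 CPM in shPpp1r17 1 to 4, against 85.9, 40.7, 53.5 and 51.0 CPM in shfLuc 1 to 4. The astrocyte list summed to 1665 to 1896 TPM in shPpp1r17 and 1747 to 1946 TPM in shfLuc. Of 15 neuron markers 3 fell, Meg3 (-0.36), Nefl (-0.39) and Eno2 (-0.43), and 1 rose, Tubb3 (0.38). No marker of these lists was at 0 in any library, and the part of cell makeup in the values of the 42 genes was not tested.

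The motif classes can be set beside the members' fold changes. The motif was picked for low fold changes in these same libraries. Lower values among its holders therefore follow in part from that choice and are no independent evidence. The 3 members with the 8-base match, Pclo, Syt6 and Sv2b, all had log2 fold changes below 0, as did 321 of the 421 searched genes with it. Their median was -0.40, beside -0.19 for those 421 genes. The 8 members with a 7-base match alone had a median of -0.02, beside -0.10 for 2423 genes. Among the 31 members with no match, 3 fell (Syt1, Rph3a and Syt10) and 0 rose, and their median was -0.06, beside 0.02 for 11417 genes, of which 1.65% were called lower. Of the 4 members that fell 3 had no match, beside 73.8% of all members. Of the 436 searched genes called lower 188 had no match, beside 80.1% of all searched genes.

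**Figure D5:**
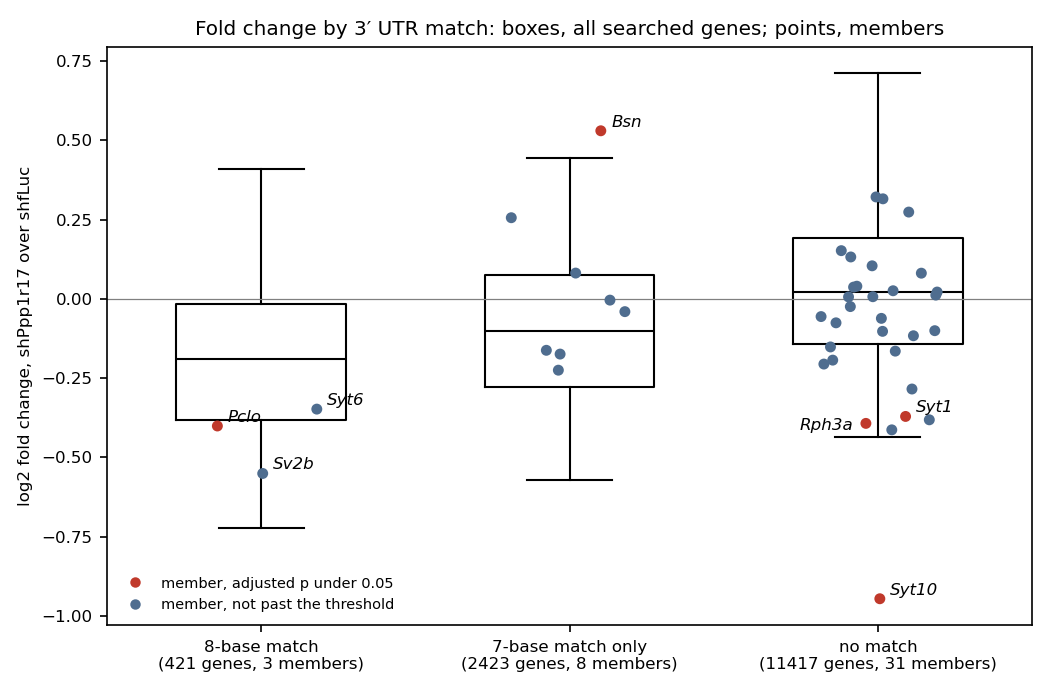
log2 fold change of shPpp1r17 over shfLuc by the kind of 3′ UTR match, with the motif picked from these same fold changes. Boxes show the median and quartiles of all searched genes with whiskers at the 5th and 95th percentiles, and points are the 42 members; the 3 members with the 8-base match lie below 0, while Syt1, Rph3a and Syt10 lie low without a match.

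Lists of neighbouring parts of the pathway also held called genes, to be read against the 2.66% lower and 3.39% higher over all tested genes. Of 37 tested partners and paralogs of the release machinery 4 fell and 0 rose, with a median log2 fold change of 0.01. They were Ppfia2, a liprin that builds the active zone (-0.71, SE 0.14), Synpr, a vesicle protein related to synaptophysin (-0.59, SE 0.13), Dnajc5, the vesicle chaperone CSP (-0.26, SE 0.06), and Rab3gap1, a regulator of Rab3 (-0.31, SE 0.08). All 4 held a match to the motif, as did 19.9% of searched genes and 248 of the 436 called lower. The motif was picked from these same fold changes, so these matches are no independent evidence on why the genes fell. Of the genes named from the lists that follow, Cacnb4 and Ston2 fell with a match, Cacna2d1, Cacna2d2, Dnm3 and Slc17a6 fell without one, and Cltb rose with one. Of 10 presynaptic calcium channel genes 3 fell and 0 rose, the auxiliary subunits Cacna2d2 (-0.48, SE 0.12), Cacna2d1 (-0.42, SE 0.10) and Cacnb4 (-0.27, SE 0.07), with a median of -0.19. With limma on log2(TPM + 1), and in edgeR with the length and GC offset, 0 of these 3 passed, and with the effective length offset 1 did, each with a fold change below 0.

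Endocytosis and transmitter loading went in both directions. Of 27 endocytosis genes 3 rose and 2 fell, with a median of 0.04. The clathrin light chain Cltb (0.38, SE 0.08) and the endophilin Sh3gl3 (0.43, SE 0.11) rose, and the adaptor stonin 2 (Ston2, -0.78, SE 0.16) and the dynamin Dnm3 (-0.24, SE 0.06) fell. Of 20 tested loading genes 2 rose, the proton pump subunits Atp6v0b (0.32, SE 0.06) and Atp6v1g1 (0.33, SE 0.07), and 1 fell, the vesicular glutamate transporter Slc17a6 (-0.33, SE 0.07), with a median of 0.05. With the length and GC offset Atp6v0b was at 0.17 (edgeR's adjusted p = 0.134) and Atp6v1g1 at 0.18 (0.188), and neither passed. Of the 3 endocytosis genes that rose, 1 passed with that offset and 0 passed on log2(TPM + 1). Without shfLuc 2 or without shfLuc 3, edgeR called 0 of all these genes.

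The deposited mean transcript length of a gene moves when its reads shift between long and short isoforms, so it is a readout that the read totals do not fix. For 39 of the 42 members the group means differed by less than 5%, and for 6 the length was the same in every library. The groups failed to overlap for 1 of 42 (2.38%), beside 2.92% of all tested genes, a share near the background. That gene was Snap25, at 1946, 2011, 2028 and 1955 bases in shPpp1r17 1 to 4, against 1932, 1905, 1895 and 1919 bases in shfLuc 1 to 4. Of the members that fell, Syt10 had 1845 bases in every library, Rph3a averaged 4141 bases in shPpp1r17 and 4140 in shfLuc, and Syt1 averaged 4569 bases in shPpp1r17 and 4535 in shfLuc. Pclo varied most of the 4, at 13631, 14952, 14631 and 12284 bases in shPpp1r17 1 to 4, against 14130, 13598, 13337 and 13380 bases in shfLuc 1 to 4, with overlapping groups.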

How the data were processed

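Per the labels' protocols, DMH RNA was extracted with PicoPure and SMARTer mRNA libraries were made. Each library has 1 deposited gene table with estimated counts, TPM, length and effective length, per the file headers. Tools named in the submitters' processing notes are bcl2fastq, DRAGEN, limma and edgeR. Build, annotation, strand and aligner settings were not given in the sources used here. TPM, scaled by the authors to length and library, served for levels. Expected counts deposited by the authors, fractional for up to 10.1% of genes, were rounded.

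Symbols matched 55141 of 55487 identifiers. The test was edgeR 4.0.16 (R 4.3.3), quasi-likelihood, with TMM factors, minimum count 10, minimum total 15, group as the single term and Benjamini-Hochberg adjustment over 17339 genes at 0.05. Standard errors come from the fold change and F statistic. CPM uses TMM-scaled library sizes. Members and gene lists were chosen with earlier results of these data known. Full values go to members past the threshold, then by smallest p up to 12, and up to 4 called genes are named from each list. Vamp7 was not analysed here.

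Alternatives were DESeq2 1.42.0, limma 3.58.1 voom with and without quality weights, RLE factors, library totals, no filter, 1 CPM in 4 libraries, robust dispersion, limma on log2(TPM + 1) and log2(TPM + 0.1), effective length, a length and GC trend (mgcv), the replicate number as a block, each library left out, and pairs of shPpp1r17 libraries left out. 3′ UTRs of at least 50 bases came from GENCODE M21. Replicates of a group differed by 7.46 to 40.2 times counting noise, as chi-square over its degrees of freedom. PCR copies are not separate molecules, so read numbers overstate precision. Near-identical or overlapping genes could share reads. Of the 12 genes with full values, Pclo, Bsn, Sv2b and Syt6 overlap exons of other annotated genes, whose shfLuc means were at most 1.38 CPM.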

Additional observations from a re-analysis of the deposited data

Results flagged for a closer look

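Of 84 groups of 4 libraries examined (42 genes in each of 2 groups), 6 had 1 library far from the other 3 in CPM, and chance alone flags about 5% of such groups. In shPpp1r17, Rab3a stood at 350 CPM in library 2 with the other 3 between 480 and 482, Cplx2 at 82.3 in library 4 with the others between 113 and 114, and Syt9 at 19.3 in library 4 with the others between 16.1 and 16.5. In shfLuc, Rph3a stood at 129 in library 1 (others 149 to 153), Syt6 at 36.6 in library 1 (others 42.5 to 43.3) and Pclo at 177 in library 2 (others 161 to 164). Rab3a, Cplx2 and Syt9 did not pass in edgeR. The causes were not tested.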

How the results depend on the processing

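The 4 members lower and 1 higher became 7 lower with limma voom and quality weights, 2 higher with DESeq2 (Cplx1 and Bsn), and 0 higher on log2(TPM + 1) and 0 on log2(TPM + 0.1). Leaving out 1 library gave 0 to 6 lower and 0 to 2 higher, beside 0% to 8.73% of all tested genes called. Without shPpp1r17 2 and 3 there were 0 lower and 0 higher, and without shPpp1r17 1 and 4 there were 7 lower and 4 higher, the 4 being Bsn, Cplx1, Snap25 and Vamp1. Fewer libraries entered these fits. No fold change of the 12 members with full values, of Ppp1r17 or of the pathway genes named changed sign in any alternative. With the replicate block 4 were lower and 1 higher. Deviations of same-numbered libraries from their group means correlated at -0.0116, 0.0354, 0.00569 and 0.116. The labels do not state whether the numbers pair the libraries. These correlations cannot decide it, because the shPpp1r17 libraries also differ in their loss of Ppp1r17. The same block gave 2 lower of the release partners, 1 lower and 1 higher of the endocytosis genes and 1 lower of the calcium channels. Over all genes, 1050 passed in edgeR (462 lower, 588 higher), 1925 in DESeq2, 1763 with quality weights, 797 on log2(TPM + 1) (488 lower, 309 higher), 726 with the block, 2687 without shPpp1r17 1 and 4, 0 without shfLuc 2 or shfLuc 3, and 37 without shPpp1r17 2 and 3. Depth limits Syt2 most, with as few as 66 reads in a shPpp1r17 library and 65 in a shfLuc library.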
